A study of Mus musculus with 5 samples.

Results

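The 43 genes described here are mitotic genes, given as a list of symbols, that carry a dividing cell from mitotic entry to cytokinesis. All 43 symbols were matched to 1 Ensembl identifier each among the 55487 in the table of gene counts, and all 43 passed the filter on low counts that left 14423 genes for testing. Their RNA was measured in sorted bone marrow common lymphoid progenitors (CLPs; lineage-negative, CD127-positive, Flt3-positive cells), the early precursors of B, T and natural killer cells. The SF1 mice carry SclCre, a Cre recombinase driven from the Scl gene of blood stem and progenitor cells, and JAK2-V617F, the active kinase mutant of myeloproliferative neoplasms. Wild-type (WT) mice were the comparison, and marrow of both groups was taken 16 weeks after tamoxifen. There were 3 SF1 and 2 WT libraries. The labels give neither the animals' age and sex nor the full allele list of the WT mice. They also do not say whether a library is 1 animal or a pool, so p-values measure only the spread between these libraries.

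Entry into mitosis is driven by the kinase CDK1 with its cyclin partners, followed by condensation of chromosomes, assembly of a spindle from microtubules and attachment of chromosomes at kinetochores. The spindle checkpoint holds back the anaphase-promoting complex until all kinetochores are attached. Separase then cuts cohesin, the chromatids part and the cell is pinched in cytokinesis. Most genes of this program are transcribed late in the cell cycle, under MuvB complexes that carry the factor B-MYB (gene Mybl2) and then FOXM1, and their RNA is low in resting cells. In a bulk library, fewer dividing cells and less of this RNA per dividing cell cannot be told apart.

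The SF1 libraries held from 9350767 to 11290082 counts in total, WT replicate 1 held 20424296 and WT replicate 2 held 8894288. The members held between 418 and 15199 counts in every library. The 8 lymphoid progenitor markers fixed as a check of the sort, Il7r and Flt3 among them, were detected in all 5 libraries, with summed levels between 8854 and 9321 CPM in SF1 and of 8384 and 8597 CPM in WT. CPM are counts scaled to the library's counts in tested genes, after TMM normalization. Of these 8 markers Il7r and Ly6d were higher and Rag1 was lower. Markers of other cells also differed: 13 of 14 neutrophil precursor markers were higher in SF1 (summed level between 2145 and 5717 CPM, against 939 and 1200 CPM in WT), as were 5 of 10 dendritic precursor markers (2138 to 2630 CPM against 1298 and 1507 CPM). Of 14 erythroid precursor markers, 11 of them tested, 8 were lower (362 to 425 CPM against 383 and 489 CPM; Hba-a2 and Slc4a1 had no counts in SF1), and of 9 macrophage markers 5 were lower (5.96 to 11.5 CPM against 25.5 and 32.9 CPM; Cd5l, Marco and Mertk had no counts in SF1). The median log2 fold changes of the tested markers were 4.18 (neutrophil), 0.59 (dendritic), -3.75 (erythroid) and -1.84 (macrophage). The neutrophil and erythroid sums thus differed less than these medians. In the list of 13 B cell and plasma cell markers, 3 were higher and 5 lower (1277 to 1679 CPM against 1315 and 1437 CPM). The part of these cells in the mitotic gene values was not tested.

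Before the values, the promoters of 6 members are shown, 5 of them with sequence elements of cell cycle genes and 1, that of Mybl2, with none of those searched. They are RefSeq windows of the GRCm38.p6 build, from 250 bases before to 50 bases after a gene's start. The first 4 are from genes that were lower in SF1, and the last 2 are from Cdk1 and Ccnb2, which did not pass. Capitals mark the CHR (cell cycle genes homology region, searched as TTTGAA and TTCGAA), which the MuvB complexes bind, the CCAAT box (searched as CCAAT), which is bound by the factor NF-Y, and an E2F-type site (searched as TTTCCCGC, TTTCGCGC, TTTGCCGC and TTTGGCGC), each on both strands.
Mybl2 (chr2:163054385-163054684, plus strand): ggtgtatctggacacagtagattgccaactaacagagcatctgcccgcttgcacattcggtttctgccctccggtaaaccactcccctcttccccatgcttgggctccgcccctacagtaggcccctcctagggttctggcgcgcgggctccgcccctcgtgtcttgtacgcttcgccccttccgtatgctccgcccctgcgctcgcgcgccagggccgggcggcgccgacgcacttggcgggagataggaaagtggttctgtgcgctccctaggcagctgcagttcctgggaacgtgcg
Espl1 (chr15:102296043-102296342, plus strand): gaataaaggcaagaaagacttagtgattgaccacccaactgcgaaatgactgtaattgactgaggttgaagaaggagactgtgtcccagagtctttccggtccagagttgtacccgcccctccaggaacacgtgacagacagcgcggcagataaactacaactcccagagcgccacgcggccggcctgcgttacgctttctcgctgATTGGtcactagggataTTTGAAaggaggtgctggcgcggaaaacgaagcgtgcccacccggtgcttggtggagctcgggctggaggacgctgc
Bub1b (chr2:118597961-118598260, plus strand): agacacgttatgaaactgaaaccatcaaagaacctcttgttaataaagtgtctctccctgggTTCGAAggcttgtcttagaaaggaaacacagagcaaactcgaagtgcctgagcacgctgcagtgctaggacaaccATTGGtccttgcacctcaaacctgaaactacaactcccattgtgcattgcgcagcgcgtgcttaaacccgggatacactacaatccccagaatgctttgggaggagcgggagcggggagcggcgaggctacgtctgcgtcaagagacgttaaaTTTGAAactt
Plk1 (chr7:122159185-122159484, plus strand): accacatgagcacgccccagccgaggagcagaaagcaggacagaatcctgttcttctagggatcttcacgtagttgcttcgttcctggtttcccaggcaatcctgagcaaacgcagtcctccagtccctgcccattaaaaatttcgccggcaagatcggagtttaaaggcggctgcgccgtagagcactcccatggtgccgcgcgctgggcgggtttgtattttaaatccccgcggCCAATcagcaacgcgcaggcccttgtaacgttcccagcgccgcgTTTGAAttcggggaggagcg
Cdk1 (chr10:69352863-69353162, minus strand): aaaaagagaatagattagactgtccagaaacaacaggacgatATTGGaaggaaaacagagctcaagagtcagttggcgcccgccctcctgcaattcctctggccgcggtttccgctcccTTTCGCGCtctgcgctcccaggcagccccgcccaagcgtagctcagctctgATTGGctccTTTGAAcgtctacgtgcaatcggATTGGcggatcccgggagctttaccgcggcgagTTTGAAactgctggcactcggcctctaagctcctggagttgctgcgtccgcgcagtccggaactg
Ccnb2 (chr9:70421505-70421804, minus strand): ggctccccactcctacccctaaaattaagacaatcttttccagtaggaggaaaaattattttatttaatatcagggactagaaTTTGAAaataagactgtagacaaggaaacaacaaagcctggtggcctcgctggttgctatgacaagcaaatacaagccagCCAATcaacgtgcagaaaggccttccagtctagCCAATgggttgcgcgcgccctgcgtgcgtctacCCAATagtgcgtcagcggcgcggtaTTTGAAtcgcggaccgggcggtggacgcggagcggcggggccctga
The Espl1 window held a reversed CCAAT box whose first base lay 44 bases before the start and a CHR 27 bases before it. In Plk1 a CCAAT box lay 14 bases before the start and a CHR began at base 31 after it. The Ccnb2 window held CCAAT boxes 87, 54 and 21 bases before the start. It also held a CHR 167 bases before the start and another at base 5. The Cdk1 window held 3 reversed CCAAT boxes, 2 CHR matches and 1 E2F-type match. None of these letters was found in the Mybl2 window, which says nothing about the factors that act there.

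Of the 43 members, 36 had 38 windows in the table. Ccna2, Aurkb, Incenp, Kif20a, Tpx2, Smc4 and Foxm1 had none. A CHR was found in 30 of the 38 windows (78.9%), against 19.2% of all 32851 windows and 14.3% of the 12872 windows of tested genes. A CCAAT box was also found in 30 (78.9%, against 37.4% and 37.9%). Both were found in 28 (73.7%, against 7.52% and 5.9%), and an E2F-type match in 3 (7.89%, against 2.26% and 3.92%). In 2 windows, those of Cdca8 and Ube2c, a CCAAT match overlapped another match by some bases. A match is a run of letters rather than a proven site. Split by the result described next, 8 of 9 windows of the genes that were lower in SF1 held both a CHR and a CCAAT box. The same was true of 20 of 29 windows of the genes that did not pass. The 9 windows are of 8 genes and the 29 of 28, since Ect2 and Prc1 each have 2 overlapping windows. The elements were thus common to genes that were called and genes that were not.

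A minority of the mitotic genes passed the test between SF1 and WT progenitors, and each of those was lower in SF1. With the quasi-likelihood test of edgeR, Benjamini-Hochberg adjusted over all 14423 genes (threshold 0.05), 9 members were lower, none was higher and 34 did not pass. Over all genes tested, 9.74% (1405) were lower and 6.77% (977) were higher, 16.5% in all. That split depended on the scaling: with upper-quartile scaling 1106 genes were lower and 1293 higher, and 7 members were lower and none higher. Among the 4457 tested genes whose mean level lay in the members' range, 17.8% were lower, so that 9 of 43 (20.9%) is near the share among genes of like abundance. The 9 were Mybl2, Espl1, Ncapd2, Ect2, Bub1b, Incenp, Plk1, Kif11 and Bub1, between 1.21-fold and 1.97-fold lower, and 2 of them (Mybl2 and Espl1) were at least 1.5-fold lower. No member had a positive difference with an unadjusted p under 0.05, and none was called higher by DESeq2 or by limma voom, against 15 members with a negative difference at that unadjusted level. These 15 are 34.9% of the members, and 31.4% of all genes tested had an unadjusted p under 0.05 in either direction.

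The intervals of the members that did not pass limit the size of a difference, but not to less than that of most of the called genes. For 32 of these 34 genes, the 95% interval of the log2 fold change (SF1 over WT) lay within 0.5 of 0 in either direction, and for all 34 it lay within 1, that is, within a doubling or halving. For 36.5% of all genes tested the interval lay within 0.5. The median log2 fold change of the 43 members was -0.15, against 0.02 over all genes tested and -0.05 over those in the same range of levels. It ran from -0.98 (Mybl2) to 0.14 (Cenpa), with 36 members below 0 and 7 above. In 24 members (55.8%) every SF1 library was below both WT libraries, against 24.2% of all genes tested and 36.4% of those in the same range of levels. In 2 members, Cenpa and Mad2l1, every SF1 library was above both, against 24.8% of all genes, and in 17 the groups overlapped. The groups were apart in 26 members, against 49% of all genes. With library totals only or with upper-quartile scaling, 18 and 17 members lay wholly below WT (20.9% and 19.8% of all genes), and 29 and 28 members were below 0.

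Summed over the 43 genes, the mitotic level was 7607, 7558 and 7822 CPM in SF1 and 8290 and 8796 CPM in WT. As a share of all counts, before any scaling, the members took 0.765%, 0.764% and 0.793% in SF1 and 0.807% and 0.868% in WT. Sum and share were thus lower in each SF1 library than in each WT library. The SF1 library with the most neutrophil precursor RNA, replicate 3, had the highest mitotic sum of the 3. A relation between neutrophil precursor RNA and the mitotic sum was not tested.

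**Figure D1:**
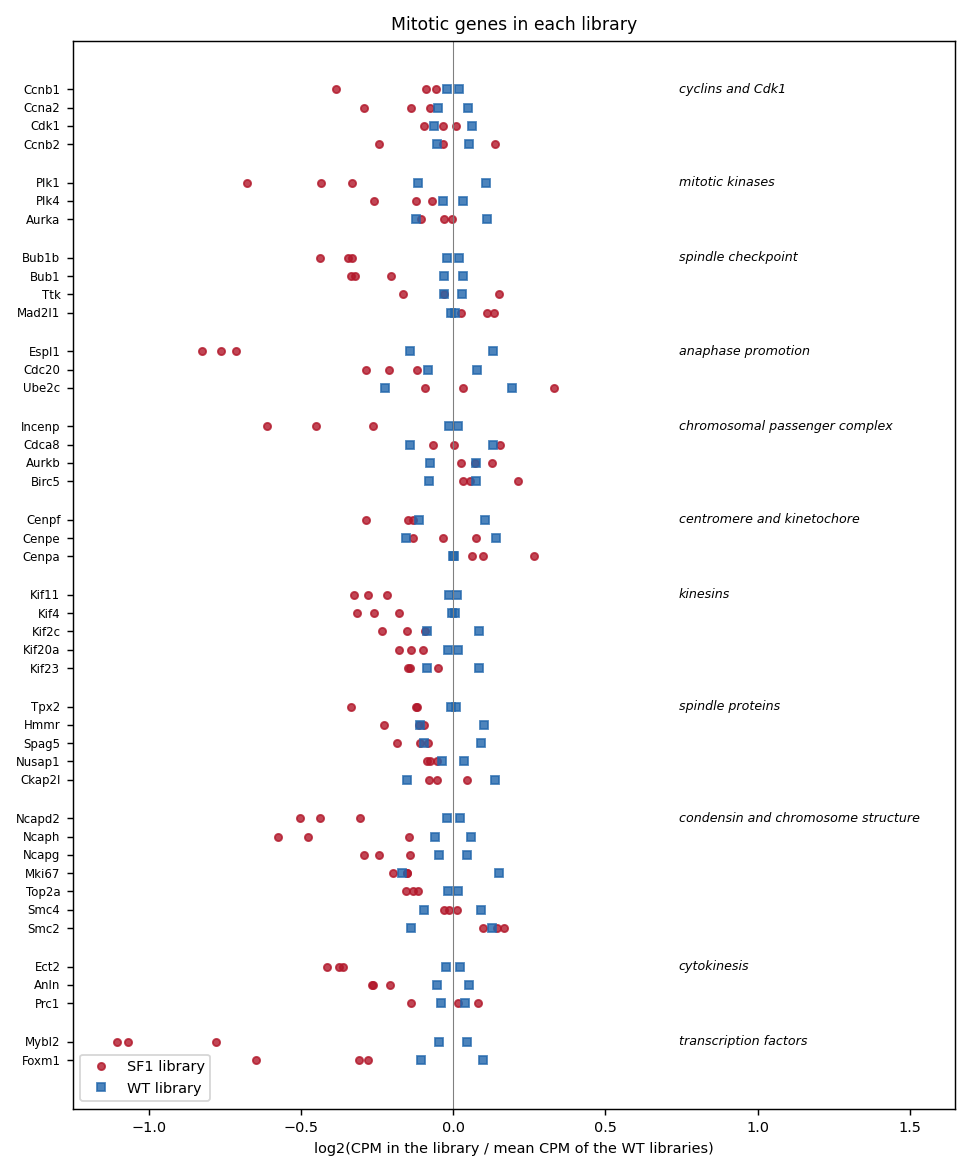
Level of each mitotic gene in each library, as log2 of its CPM over the mean CPM of the WT libraries (horizontal axis), grouped by role. Red circles are the 3 SF1 libraries and blue squares the 2 WT libraries. The SF1 circles of Mybl2 and Espl1 lie farthest to the left, while those of Cdk1, Ccnb2, Aurka and Smc4 overlap the WT squares.

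The transcription factor genes stood at the low end. Mybl2 (ENSMUSG00000017861, GRCm38 chromosome 2, 163054687 to 163084688), which encodes B-MYB, was at 48.2, 39.4 and 38.4 CPM in SF1 replicates 1, 2 and 3 and at 85.3 and 80.1 CPM in WT replicates 1 and 2. All SF1 libraries lay far below both WT libraries. The mean was 42.0 ± 5.38 CPM (SD, n = 3) against 82.7 ± 3.73 CPM (n = 2), 1.97-fold lower, with a log2 fold change of -0.98 (SE 0.12, edgeR adjusted p = 0.0014). Foxm1 (chromosome 6, 128362967 to 128376146), the forkhead factor of the same program, was at 85.0, 65.9 and 83.2 CPM in SF1 and 110 and 95.9 CPM in WT. The groups did not overlap, but the difference did not pass (log2 fold change -0.41, 95% interval -0.69 to -0.12, edgeR adjusted p = 0.0564). It passed in 5 of 16 alternatives, DESeq2 (adjusted p = 0.0301) and limma voom (0.0427) among them. It did not pass on leaving out any 1 library (adjusted p between 0.0565 and 0.320), and with GC and length correction the log2 fold change was -0.26 (adjusted p = 0.141).

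The cyclins and Cdk1 did not pass. The 95% intervals of the cyclins included the fitted value of Kif11 (log2 fold change -0.27), a gene that passed. Cdk1, the kinase that starts mitosis, was at 182, 195 and 190 CPM in SF1 and at 186 and 203 CPM in WT (log2 fold change -0.04, 95% interval -0.22 to 0.14). Ccnb2, a B-type cyclin that activates it, was at 165, 191 and 215 CPM against 189 and 203 CPM (-0.04, -0.29 to 0.21). In both genes the groups overlapped. Ccnb1, the main mitotic cyclin, was at 105, 132 and 129 CPM against 139 and 136 CPM (-0.17, -0.41 to 0.07). Ccna2, the A-type cyclin of S phase and early mitosis, was at 299, 348 and 333 CPM against 354 and 380 CPM (-0.17, -0.36 to 0.03, edgeR adjusted p = 0.228). For Ccnb1 and Ccna2 every SF1 library lay below both WT libraries, with SF1 replicate 1 the lowest.

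Among the mitotic kinases, Plk1 was lower and Plk4 and Aurka did not pass. Plk1 (chromosome 7, 122159439 to 122169873), polo-like kinase, which acts from centrosome maturation to cytokinesis, was at 104, 87.8 and 112 CPM in SF1 and at 130 and 151 CPM in WT. The groups were separate, with the WT libraries themselves well apart. The log2 fold change was -0.47 (SE 0.12, edgeR adjusted p = 0.0265). Leaving out SF1 replicate 1, SF1 replicate 2 or WT replicate 2 ended the call (adjusted p = 0.055, 0.0764 and 0.124). Plk4, the kinase of centriole duplication, was at 106, 110 and 96.1 CPM against 113 and 118 CPM (adjusted p = 0.296). Aurka, which acts at spindle poles, was at 137, 128 and 135 CPM against 126 and 148 CPM (adjusted p = 0.792).

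Of the spindle checkpoint genes, Bub1b and Bub1 passed as lower and Ttk and Mad2l1 did not pass. Differences between them were not tested. Bub1b (chromosome 2, 118598211 to 118641591), which encodes the checkpoint protein BUBR1, was at 260, 262 and 243 CPM in SF1 and 334 and 326 CPM in WT. Every SF1 library was below both WT libraries and the spread within each group was small (log2 fold change -0.37, SE 0.07, edgeR adjusted p = 0.0112). The call was lost without WT replicate 1 (adjusted p = 0.0708). The checkpoint kinase gene Bub1 (chromosome 2, 127801122 to 127831865) was at 102, 94.2 and 93.3 CPM against 120 and 115 CPM. Its edgeR adjusted p was 0.0491, at the edge of the threshold, and the call was lost in 9 of 16 alternatives, among them leaving out SF1 replicate 2 or 3 or either WT replicate (adjusted p between 0.0933 and 0.24). Ttk, which encodes the kinase MPS1 at the head of the checkpoint, was at 55.7, 61.3 and 69.4 CPM against 61.3 and 63.9 CPM (log2 fold change -0.01, 95% interval -0.27 to 0.25). Mad2l1, which encodes the checkpoint effector MAD2, was slightly above WT in each SF1 library, at 153, 165 and 163 CPM against 150 and 151 CPM (0.09, -0.09 to 0.27, adjusted p = 0.47).

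Of the genes that promote anaphase, Espl1 was lower. Espl1 (chromosome 15, 102296266 to 102324357), which encodes separase, was at 72.9, 78.7 and 76.0 CPM in SF1 and at 141 and 117 CPM in WT. The SF1 libraries were close together and the lower WT library was still far above them. The level was 1.71-fold lower (log2 fold change -0.77, SE 0.10, edgeR adjusted p = 0.00185). Cdc20, the activator of the anaphase-promoting complex, was at 169, 178 and 190 CPM against 195 and 218 CPM (adjusted p = 0.153). Ube2c, the ubiquitin-conjugating enzyme of that complex, was at 145, 158 and 194 CPM against 132 and 177 CPM, with the widest interval among the genes that overlapped (log2 fold change 0.11, -0.23 to 0.45).

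In the chromosomal passenger complex, which corrects faulty attachments and guides cytokinesis, the scaffold gene alone passed. Incenp (chromosome 19, 9872296 to 9899551), the scaffold, was at 194, 152 and 170 CPM in SF1 and at 230 and 235 CPM in WT (log2 fold change -0.43, SE 0.10, edgeR adjusted p = 0.0225). The SF1 libraries were all below WT and varied more than the WT libraries. The call was lost without SF1 replicate 2 or 3 or without WT replicate 1 or 2 (adjusted p between 0.0671 and 0.0871). Its kinase Aurkb was at 235, 226 and 219 CPM against 204 and 227 CPM (log2 fold change 0.08, 95% interval -0.11 to 0.26). Birc5, which encodes the subunit survivin, was at 159, 156 and 177 CPM against 145 and 161 CPM (0.10, -0.10 to 0.31), and Cdca8, which encodes borealin, was at 166, 174 and 193 CPM against 158 and 190 CPM (0.04, -0.20 to 0.27). These members thus had fitted values above 0 while that of Incenp was below 0, and the difference between them was not tested.

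The centromere and kinetochore genes did not pass. Cenpa, the histone variant that marks centromeres, was at 175, 171 and 197 CPM in SF1 and at 164 and 163 CPM in WT (log2 fold change 0.14, 95% interval -0.05 to 0.34). Cenpf, a large protein of the outer kinetochore, was at 130, 117 and 128 CPM against 132 and 153 CPM (-0.19, -0.40 to 0.03). Cenpe, the kinetochore motor, was at 118, 110 and 127 CPM against 108 and 133 CPM (-0.02, -0.27 to 0.22). The order of the groups thus differed among the genes of this role.

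All 5 kinesins had fitted values below 0, and Kif11 passed. Kif11 (chromosome 19, 37376403 to 37421859), the motor that pushes spindle poles apart, was at 241, 249 and 259 CPM in SF1 and at 305 and 299 CPM in WT. The groups were well separated relative to their spread (log2 fold change -0.27, SE 0.07, edgeR adjusted p = 0.0369). The adjusted p was between 0.0649 and 0.168 without any 1 of the 5 libraries, and 0.0677 and 0.0812 with library totals only and with upper-quartile scaling. Kif4, a chromosome-bound motor, was at 88.8, 85.4 and 93.9 CPM against 107 and 106 CPM (adjusted p = 0.0764). Kif20a and Kif23, motors of the central spindle, and Kif2c, a microtubule depolymerase, had log2 fold changes of -0.14, -0.11 and -0.16 (adjusted p = 0.242, 0.406 and 0.282). Kif20a shares 1271 exon bases with Cdc23 and Kif4 shares 832 with Pdzd11, both on the opposite strand, so their counts are uncertain.

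None of the 5 spindle protein genes passed. Tpx2, the activator of Aurora A on the spindle, was at 209, 180 and 208 CPM in SF1 and at 226 and 228 CPM in WT (log2 fold change -0.19, 95% interval -0.39 to 0.01, adjusted p = 0.185). Nusap1, a microtubule-bundling protein, was at 238, 237 and 242 CPM against 245 and 257 CPM (-0.07, -0.24 to 0.10). Hmmr, Spag5 and Ckap2l, which encode spindle and centrosome proteins, had log2 fold changes of -0.14, -0.13 and -0.02, and their groups overlapped.

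Of the genes of chromosome structure, Ncapd2 alone passed, a gene of condensin, the ring complex that compacts chromosomes. Differences between these genes were not tested. Ncapd2 (chromosome 6, 125168007 to 125191701), a regulatory subunit of condensin I, was at 371, 323 and 339 CPM in SF1 and at 466 and 452 CPM in WT. The groups were separate (344 ± 24.3 CPM, n = 3, against 459 ± 9.66 CPM, n = 2; log2 fold change -0.42, SE 0.08, edgeR adjusted p = 0.0101). Without WT replicate 1 the adjusted p was 0.0607. The other non-SMC subunit genes of condensin I were also below WT in each SF1 library: Ncaph was at 152, 121 and 113 CPM against 161 and 175 CPM (-0.39, adjusted p = 0.0639), and Ncapg at 123, 119 and 132 CPM against 151 and 141 CPM (-0.23, adjusted p = 0.102). Neither passed in the reported test. Ncaph passed in 5 of 16 alternatives, among them DESeq2 (adjusted p = 0.0304) and limma voom (0.0411). On leaving out 1 library, its adjusted p was between 0.0103 and 0.195.

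The ATPase genes shared by both condensins did not pass. Smc2 was at 245, 237 and 248 CPM in SF1 and at 201 and 242 CPM in WT (log2 fold change 0.14, 95% interval -0.07 to 0.35), and Smc4 at 342, 338 and 348 CPM against 323 and 368 CPM (-0.01, -0.19 to 0.17). The 2 WT libraries were farther apart in these genes than the SF1 libraries. Top2a, the topoisomerase that untangles chromatids, had the highest CPM of the members, at 705, 714 and 694 CPM against 765 and 782 CPM (-0.13, -0.28 to 0.01, adjusted p = 0.197). Mki67, the gene of the proliferation marker Ki-67, was at 269, 269 and 261 CPM against 266 and 332 CPM (-0.16, -0.39 to 0.06, adjusted p = 0.291). WT replicate 1 lay within the SF1 range of Mki67, and WT replicate 2 was above it.

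Of the cytokinesis genes, Ect2 was lower. Ect2 (chromosome 3, 27097222 to 27153878), the exchange factor that activates RhoA at the cleavage plane, was at 154, 150 and 155 CPM in SF1 and at 196 and 203 CPM in WT. Its SF1 libraries were the closest together among the lower genes (153 ± 2.90 CPM, n = 3, against 200 ± 4.47 CPM, n = 2; log2 fold change -0.38, SE 0.08, edgeR adjusted p = 0.0101). Anln, the scaffold anillin of the contractile ring, was at 78.3, 81.4 and 78.0 CPM against 90.5 and 97.4 CPM (-0.24, 95% interval -0.44 to -0.05, adjusted p = 0.0909). Prc1, which bundles the central spindle, was at 180, 210 and 200 CPM against 193 and 204 CPM (-0.01, -0.21 to 0.19).

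**Figure D2:**
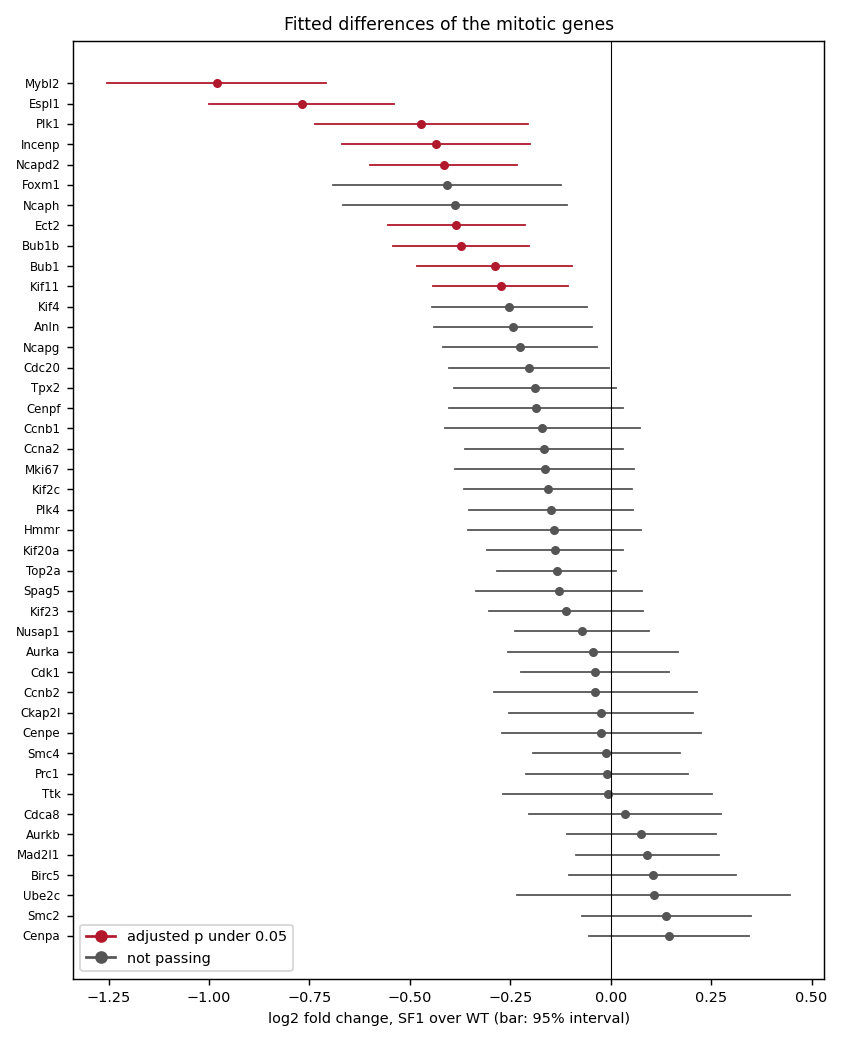
Fitted log2 fold change of each mitotic gene, SF1 over WT (horizontal axis), with its 95% interval as a bar. The 9 genes with an adjusted p under 0.05 are red, and the intervals of 42 of the 43 genes lie within 1 of 0, Mybl2 being the exception.

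Compared by role, 2 of 4 spindle checkpoint genes passed as lower, 1 of them (Bub1) at the edge of the threshold. The counts were 1 of 5 kinesins, 1 of 7 condensin and chromosome structure genes and 1 of 3 cytokinesis genes. Over all genes tested 9.74% were lower, and 17.8% of those in the members' range of levels. The median log2 fold changes of these roles were close, at -0.15, -0.16, -0.16 and -0.24. The other medians ran from -0.69 for the 2 transcription factors to 0.06 for the passenger complex. The summed levels of the spindle checkpoint genes were 571, 582 and 569 CPM in SF1 and 666 and 656 CPM in WT, and those of the kinesins 816, 815 and 859 CPM against 928 and 965 CPM. The condensin and chromosome structure genes summed to 2207, 2121 and 2135 CPM against 2333 and 2492 CPM, and the cytokinesis genes to 412, 441 and 434 CPM against 480 and 504 CPM. In each of these roles every SF1 library was below both WT libraries. The same held for the sums of the mitotic kinases and the transcription factors. For the anaphase genes the margin was narrow (at most 460.2 CPM in SF1, at least 468.3 CPM in WT). The spindle proteins were also narrowly apart (at most 821.4 CPM in SF1, at least 841.8 CPM in WT). The cyclins and Cdk1 were barely apart (at most 867.7 CPM in SF1, at least 868.4 CPM in WT). All these sums rest on TMM scaling, and their separation with other scalings was not examined. The sums of the passenger complex (754, 709 and 760 CPM against 737 and 813 CPM) and of the centromere and kinetochore genes (423, 397 and 452 CPM against 404 and 449 CPM) overlapped. Differences between roles were not tested.

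Levels per length place the members on a common scale. Dividing CPM by the length of all exons in kilobases, and averaging over the 5 libraries, Ccnb2 was highest at 126 CPM per kb (108 to 141 over the libraries), followed by Cdc20 at 102 (90.4 to 117), Ccna2 at 84.0 (73.3 to 93.0) and Top2a at 81.2 (77.0 to 86.8). The ranges of neighbours among these 4 genes overlapped. The lowest were Cenpf at 8.55 (7.56 to 9.92), Anln at 9.39 (8.61 to 10.7), Espl1 at 11.1 (8.33 to 16.1) and Mybl2 at 12.6 (8.29 to 18.4) CPM per kb. Mybl2 and Espl1, with the largest differences between SF1 and WT, were thus among the least abundant members per length in this average. The average includes the SF1 libraries, so the lower SF1 levels of these genes reduce it. Bub1b, at 66.6 CPM per kb (56.9 to 78.2), and Ncapd2, at 62.3 (51.6 to 74.3), were among the more abundant. Exon length counts all annotated exons, so the scale is approximate for genes with long minor isoforms.

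Base composition moved with the fold change. The Spearman correlation of the log2 fold change with the GC content of the longest transcript was -0.30 over the 43 members and -0.15 over the 14403 tested genes with a value, given as a description since genes of the same libraries are not independent. Of the 9 lower members, 6 had a GC content of at least 50%, Mybl2 and Espl1 being at 56.3% and 56.1%. By class, 6 of 13 members with at least 50% GC were lower (14.7% of all tested genes of that class), none of 14 between 45 and 50% (6.85%) and 3 of 16 below 45% (4.29%). With a smooth trend on GC content and gene length removed from each library, all 9 members were still lower, with log2 fold changes of -0.82 for Mybl2 (adjusted p = 0.00275), -0.53 for Espl1 (0.00545), -0.27 for Ncapd2 (0.0468) and -0.42 for Bub1 (0.0143). Ncaph (-0.44, adjusted p = 0.0422) and Cdc20 (-0.29, adjusted p = 0.0368) then passed as well, for 11 in all, and the median of the members was -0.21, with that of all genes at -0.05.

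**Figure D3:**
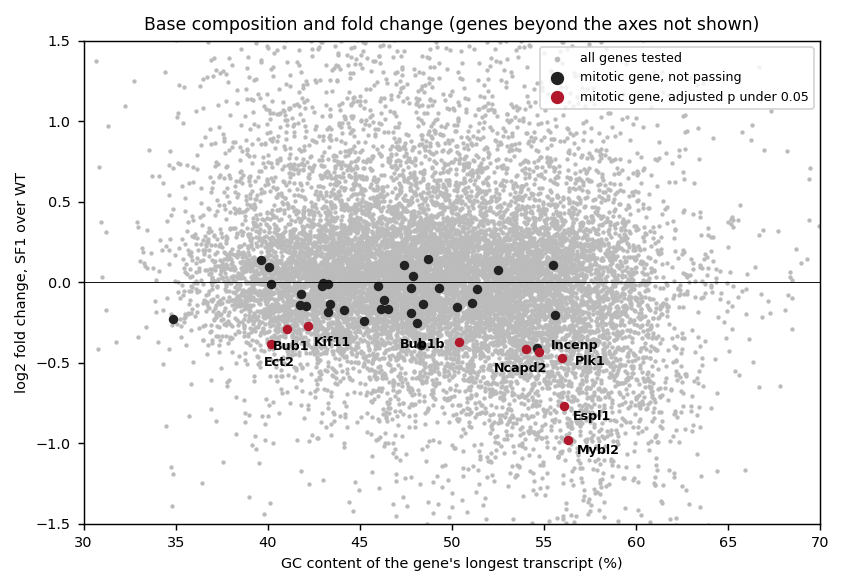
GC content of the longest transcript of each gene in percent (horizontal axis) against its log2 fold change, SF1 over WT. Grey points are all genes tested within the axes, black points are mitotic genes that did not pass and red points the 9 that were lower; 6 of the red points lie at or above 50% GC.

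Across 16 alternatives to the scaling, test, filter, depth and set of libraries, no member was called higher. Mybl2, Espl1 and Ect2 were called lower in all 16, with log2 fold changes between -1.09 and -0.74, between -0.90 and -0.51 and between -0.50 and -0.33. Bub1b was called lower in 15, Ncapd2 in 14, Plk1 in 13, Incenp in 11, Kif11 in 8 and Bub1 in 7. Foxm1, Ncaph, Ncapg, Cdc20 and Ccnb2 were called lower in at least 1 alternative, and 29 members in none. The number of lower members fell to 4 when WT replicate 1 was left out and to 5 when WT replicate 2 was. It was 5 on leaving out SF1 replicate 2 and 6 on leaving out SF1 replicate 3. The share of all tested genes called lower fell in the same fits, to 3.49%, 7.86%, 5.48% and 5.87%.

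**Figure D4:**
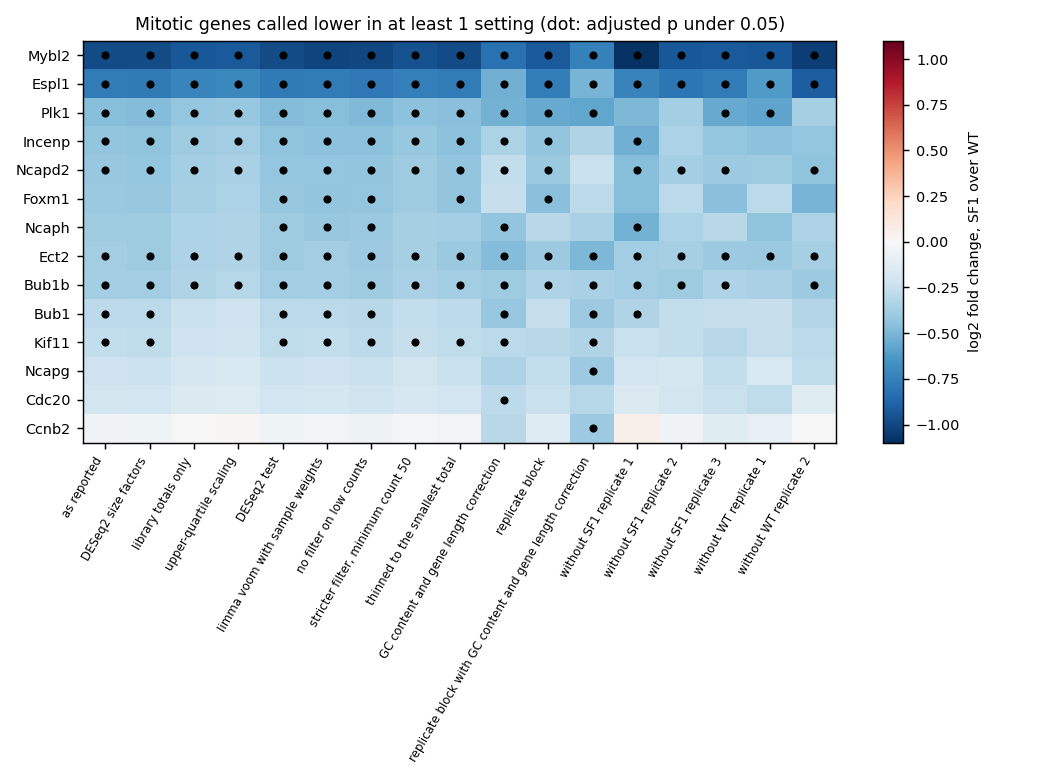
Log2 fold change, SF1 over WT (color), of the 14 mitotic genes called lower as reported (first column) or in at least 1 of 16 alternatives (other columns). A dot marks an adjusted p under 0.05; Mybl2, Espl1 and Ect2 have a dot in every column.

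The rest of the mitotic machinery was read from 6 further lists and compared with a list of DNA replication genes, 196 genes in all, each of which was tested. In these lists 22 genes (11.2%) were lower and 4 (2.04%) higher, against 9.74% and 6.77% of all genes tested. Among tested genes in the members' range of levels, 17.8% were lower and 6.96% higher. Some of the 196 genes lay below that range. Among 40 other kinetochore and checkpoint genes none was lower or higher by the edgeR test. The smallest adjusted p-values were those of Cenpl, a constitutive centromere protein gene (0.0761, log2 fold change 0.29), Sgo2a, a protector of centromeric cohesin (0.0782, -0.31), and Mis18a, a licensing factor for centromeric chromatin (0.0788, 0.30). The median of that list was 0.03, against 0.02 over all genes. Cenpl passed as higher with library totals only (adjusted p = 0.049) and with upper-quartile scaling (0.0422), Mis18a with upper-quartile scaling (0.0485), and Sgo2a as lower after thinning (0.0443).

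Of 34 other spindle and cytokinesis genes, 7 were lower (20.6%) and none higher. Over all genes tested 9.74% were lower, and 17.8% of those in the members' range of levels. Some genes of this list, Sapcd2 among them, lay below that range. Sapcd2, a regulator of spindle orientation, was at 22.8, 23.1 and 25.6 CPM in SF1 and at 55.2 and 44.6 CPM in WT, 2.10-fold lower (log2 fold change -1.07, SE 0.13, edgeR adjusted p = 0.00132). Numa1, which anchors microtubules at spindle poles, was 1.53-fold lower (adjusted p = 0.00288), and the kinesin gene Kif18b 1.48-fold lower (adjusted p = 0.00439). Of 22 other mitotic kinases and regulators, 3 were lower (13.6%, against 9.74% of all genes tested) and none higher. These were Wee1, the kinase that holds CDK1 inactive (log2 fold change -0.50, adjusted p = 0.00605), Cdc25a, a phosphatase that activates CDK-cyclin complexes (-0.40, adjusted p = 0.0308), and Gtse1, a microtubule-associated protein gene (-0.67, adjusted p = 0.0208). The other 19 genes of this list, further regulators of CDK1 among them, did not pass. The Cdc25a call was lost without SF1 replicate 2 or 3 or either WT replicate (adjusted p between 0.0562 and 0.167), and the Gtse1 call without SF1 replicate 3 or either WT replicate (between 0.0565 and 0.0892).

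Of 17 other condensin and cohesin genes, 3 were lower (17.6%) and 2 higher (11.8%), against 9.74% and 6.77% of all genes tested. The cohesin regulators Pds5a and Pds5b went opposite ways: Pds5a was at 164, 195 and 179 CPM in SF1 and at 126 and 117 CPM in WT (log2 fold change 0.56, edgeR adjusted p = 0.00579), and Pds5b at 102, 116 and 97.6 CPM against 152 and 138 CPM (-0.47, adjusted p = 0.0137). Ncapg2, a subunit of condensin II, had a fitted value of -0.47 (log2, adjusted p = 0.0171). The calls of Pds5b and Ncapg2 were lost without SF1 replicate 3 (adjusted p = 0.0538 and 0.0633) or WT replicate 1 (0.106 and 0.131). Of 17 genes of the anaphase-promoting complex and its partners, Anapc16, a subunit gene, was higher (0.43, adjusted p = 0.0235, lost without any 1 library, adjusted p between 0.0534 and 0.141), while the scaffold gene Anapc1 (-0.41, adjusted p = 0.0944) and Anapc5 (-0.18, adjusted p = 0.147) did not pass. Anapc1 passed without WT replicate 2 (adjusted p = 0.0131).

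Among 21 genes of the DREAM complex and the E2F family, which act upstream of the mitotic program, 2 were lower (9.52%) and 1 higher (4.76%). These shares are near or below the 9.74% lower and 6.77% higher over all genes tested. E2f3, an activating E2F, was at 24.8, 30.4 and 19.7 CPM in SF1 and at 53.6 and 56.9 CPM in WT, 2.21-fold lower (log2 fold change -1.14, SE 0.17, edgeR adjusted p = 0.00278). Rb1, the retinoblastoma gene, whose product restrains E2F, was at 50.8, 67.1 and 64.1 CPM against 35.9 and 32.1 CPM (0.83, SE 0.14, adjusted p = 0.0056). Tfdp2, an E2F partner, was at -0.42 (adjusted p = 0.0323; lost without SF1 replicate 2 or 3 or WT replicate 1, adjusted p between 0.101 and 0.269).

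In the list of 45 DNA replication genes 7 were lower (15.6%) and none higher. Of all genes tested 9.74% were lower, and of those in the members' range of levels 17.8%. The median log2 fold change of the replication genes was -0.13, beside the -0.15 of the mitotic genes. Uhrf1, which recruits the maintenance DNA methyltransferase, was at 323, 288 and 269 CPM in SF1 and at 597 and 586 CPM in WT (2.02-fold lower, edgeR adjusted p = 0.000371). Pold1, the catalytic subunit of DNA polymerase delta, was 1.94-fold lower (adjusted p = 0.000381), and Cdt1, a licensing factor, 1.77-fold lower (adjusted p = 0.00284). The ratio of the summed replication level to the summed mitotic level was 1.54, 1.51 and 1.34 in SF1 and 1.59 and 1.43 in WT. The groups overlapped in that ratio.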

How the data were processed

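The deposited table holds unnormalized gene counts of 5 libraries. FastQC, featureCounts 2.0.1, HISAT2 2.2.1 and the build GRCm38 are named in the submitters' processing notes. Annotation release, strand and multi-mapping settings were not given in the sources used here. Per the labels' protocols, SMART-Seq cDNA (version 2 or 4) went into Nextera XT libraries, which carry no strand or molecular identifiers. Exons of 14 members overlap another gene (11 on the opposite strand), and their shared reads cannot be assigned. The 11 are Ccna2, Cdc20, Cdca8, Ckap2l, Kif20a, Kif4, Ncapg, Nusap1, Plk1, Prc1 and Ube2c. Symbols, lengths and GC content came from GENCODE M21 (55227 of 55487 identifiers matched).

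Counts were tested with edgeR 4.0.16 (R 4.3.3; TMM, filterByExpr minimum count 10, quasi-likelihood F test, no covariate). Adjusted p-values are from this test over all genes unless another is named. Standard errors and 95% intervals derive from the F statistic. Tests were checked on simulated counts. Alternatives used DESeq2 1.42.0, limma voom 3.58.1, other scalings and filters, thinning, GC and length trends (mgcv 1.9.3) and left-out libraries; scaling of the non-overlap count was added after seeing the data.

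Members and lists were chosen with earlier results of these data known. Named were all members that passed, the smallest p per role and up to 3 genes per further list; other members were added to complete their roles.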

Additional observations from a re-analysis of the deposited data

How the results depend on the processing

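The number of genes called over the whole table was 2382 (977 higher and 1405 lower), and 1293 higher and 1106 lower with upper-quartile scaling. Leaving out 1 library gave between 986 and 2170 (464 to 905 higher and 522 to 1265 lower). With the replicate number as a block, which leaves SF1 replicate 3 without a partner, 1519 genes were called (574 higher), with 8 mitotic genes lower. The labels do not say that equal numbers mark a shared animal or day, so the block was not used in the report. Deviations of equally numbered libraries correlated at 0.04 and 0.06. With 2 WT libraries, whose deviations mirror each other, these correlations cannot decide whether the libraries are paired. No mitotic gene was higher in any alternative. The number of lower mitotic genes was 9, and between 4 and 8 with 1 library left out; the range of the median log2 fold change was then -0.18 to -0.12. That median, -0.15 in the report, was -0.091 with upper-quartile scaling, -0.21 with GC and length correction and -0.22 with that correction and the block. In the 7 further lists, 4 genes were higher and 22 lower. These numbers were 7 higher with upper-quartile scaling, 35 lower with no filter on low counts, 34 lower with GC and length correction, 2 higher and 13 lower with the block, and 2 higher with the block and the correction; with 1 library left out they were between 2 and 3 higher and between 9 and 21 lower. Where a call was lost or gained, the cause was not tested. Leaving out a WT replicate leaves 1 WT library, assumed to vary like the SF1 libraries. No named gene changed sign where it was called. With counts of at least 418 per member and library, all members were detected at this depth; the smallest difference of a member that passed was 1.21-fold.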
